A study of Mus musculus with 7 samples.

Results

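The amino acid response genes *Atf4*, *Atf5*, *Ddit3*, *Trib3*, *Asns*, *Psat1*, *Phgdh*, *Chac1*, *Sesn2* and *Slc7a11* were followed across 23 mouse seminal vesicle samples. These 10 genes were named as known genes of the response, with earlier results of these data in view, and all 10 were found among the 30406 genes that could be counted in every sample. The question was whether low protein, caloric restriction or rapamycin was accompanied by other RNA levels of these genes, in the cells that make seminal fluid or in the remaining cells of the gland.

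When a cell runs short of an amino acid, uncharged tRNA activates the kinase GCN2, which phosphorylates the translation factor eIF2α. General translation then slows while the *Atf4* message is translated more, so that the ATF4 protein can rise without a change in its RNA. ATF4 binds a composite C/EBP-ATF site together with a C/EBP partner and induces genes for amino acid transport, synthesis and tRNA charging. The same branch is entered from the endoplasmic reticulum through the kinase PERK, a route of interest in a gland whose epithelium secretes protein in bulk, and rapamycin acts on mTORC1, a complex that also promotes the translation of *Atf4*.

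All mice were wild type males, and each was profiled by droplet-based single-cell RNA-seq. The aging pool held 10 C57BL/6J mice, with 2 at 3 months of age, and 2 untreated and 2 rapamycin-treated mice at each of 20 and 28 months. The diet pool held 8 FVB/NJ mice of 3 months, with 2 each under control diet, low protein, high fat and caloric restriction. A further 3 FVB/NJ mice of 3 months (control, high fat, low protein) were sequenced as single-mouse libraries. So were a young and an old FVB/NJ individual (3 and 18 months), both listed as control. Per the study's methods, the control, low protein and high fat diets began after weaning, and the calorically restricted mice received a reduced ration of the control diet and were housed singly. The study describes the rapamycin exposure as transient. Single housing and the reduced ration therefore cannot be told apart, and the caloric restriction group was 2 mice of 1 pool.

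Of 53352 deposited cells, 40342 passed the filters, and 9734 of these were secretory, meaning that *Svs2*, *Svs4*, *Svs5* and *Svs6*, which encode seminal vesicle secretory proteins, together took at least 30% of a cell's unique molecular identifiers (UMIs). The secretory cells of a mouse ranged down to 15, with 16 in control mouse 2 and 17 in caloric restriction mouse 2. The young and the old individual stood apart, since they held 0 secretory cells and *Svs5* at 3.5 and 3.0 CPM (counts-per-million of UMIs), so the labelled tissue lacked its defining RNA there and both were left out of every test. In the other 21 mice, 0.832 to 4.79% of the UMIs of the remaining cells ("other cells") came from *Svs* genes. Of these cells, 252 held 10 to 20% and 128 held 20 to 30% of their UMIs on *Svs2*, *Svs4*, *Svs5* and *Svs6*. How much of this was the cells' own RNA was not tested. Multiplexing tags matched the listed mouse in 18 of 18 pool tables, and no pair of libraries shared more than 0.41% of its cell barcodes.

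The promoters of the members are shown because the response is read through a short site near the start of its targets. The letters TGATGNAA, the core of the composite C/EBP-ATF site, were searched on both strands in windows from 250 bases before to 50 bases after each RefSeq start site (GRCm38.p6). They occurred in 4 of the 10 members, against 4.51% of all 27025 genes with a window. The 4 windows follow, 5′ to 3′ along the gene's strand, with the matches in capitals. They are *Asns* at chr6:7693160-7693459 (minus strand), *Chac1* at chr2:119350992-119351291 (plus), *Trib3* at chr2:152344011-152344310 (minus) and *Slc7a11* at chr3:50443564-50443863 (minus).
*Asns*: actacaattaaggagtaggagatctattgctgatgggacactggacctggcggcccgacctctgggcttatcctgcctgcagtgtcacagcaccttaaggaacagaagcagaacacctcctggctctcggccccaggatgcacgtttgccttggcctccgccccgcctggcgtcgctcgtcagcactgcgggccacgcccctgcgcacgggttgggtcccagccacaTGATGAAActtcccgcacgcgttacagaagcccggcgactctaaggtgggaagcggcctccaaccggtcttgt
*Chac1*: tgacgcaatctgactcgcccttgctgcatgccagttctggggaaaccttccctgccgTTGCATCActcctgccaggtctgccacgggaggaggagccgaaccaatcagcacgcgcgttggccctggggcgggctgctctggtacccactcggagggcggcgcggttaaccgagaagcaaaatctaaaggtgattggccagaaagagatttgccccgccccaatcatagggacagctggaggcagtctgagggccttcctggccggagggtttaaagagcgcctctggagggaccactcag
*Trib3*: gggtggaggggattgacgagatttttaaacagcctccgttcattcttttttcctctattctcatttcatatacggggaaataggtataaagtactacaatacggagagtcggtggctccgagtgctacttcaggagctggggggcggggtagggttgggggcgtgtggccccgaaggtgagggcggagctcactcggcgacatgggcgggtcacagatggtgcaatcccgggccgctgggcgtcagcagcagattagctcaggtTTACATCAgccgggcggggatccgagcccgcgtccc
*Slc7a11*: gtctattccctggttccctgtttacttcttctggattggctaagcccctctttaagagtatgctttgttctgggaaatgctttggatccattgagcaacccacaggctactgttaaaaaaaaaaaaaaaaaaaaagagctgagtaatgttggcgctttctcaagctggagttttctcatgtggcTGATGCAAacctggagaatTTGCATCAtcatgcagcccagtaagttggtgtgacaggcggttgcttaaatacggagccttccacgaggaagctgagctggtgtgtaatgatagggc
The first base of the match lay 23 bases before the start site in *Asns* and 193 bases before it in *Chac1*, where it was on the opposite strand. *Slc7a11* held a pair of matches that face each other, at 66 and 47 bases before the start, and the *Trib3* match lay 14 bases after it. The windows of *Atf4*, *Atf5*, *Ddit3*, *Psat1*, *Phgdh* and *Sesn2* did not hold these letters. In the wider response list (transporters, one-carbon and serine enzymes, regulators and secreted factors) 7 of 21 genes with a window held them, and in the tRNA synthetase list 5 of 8 genes did. A match is only a run of letters, and binding was not measured here.

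The genes differed in which cells held them. Levels between cell types are given as CPM outside the *Svs* genes without further scaling, as the median over mice with its range, with cells sorted into 8 types by markers listed for each type. The young and the old individual enter the medians of every type except secretory and prostate-like cells. The paper proposes that prostate-like cells more likely came from adhering prostate tissue, while naming evidence that they may belong to the gland. The origin of the prostate-like cells was not tested here. No test was made between types, since cells of a mouse share a library, and the ranges of neighbouring types overlapped for each of the 10 genes.

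*Asns*, asparagine synthetase, stood highest in prostate-like cells (135.8 CPM, range 46.22 to 294.6, 13 mice) and secretory cells (101, 51.65 to 168.1, 21 mice). Basal cells followed at 36.25 (22.45 to 169.8). Within the same mouse, *Asns* was higher in prostate-like than in secretory cells in 11 of 13 mice. *Chac1*, which breaks down glutathione, had the same order of medians, at 120.4, 103 and 22.42. Within the same mouse it was higher in prostate-like than in secretory cells in 8 of 13 mice and lower in 5. *Phgdh*, the entry enzyme of serine synthesis, reached 328.3 in prostate-like cells (144.3 to 538.8) against 100.8 in basal and 82.94 in secretory cells, and was higher in prostate-like than secretory cells in 13 of 13 mice. *Psat1*, the next enzyme of that pathway, was instead led by secretory cells at 47.73 (12.91 to 83.93), and only 2 of 13 mice had more of it in prostate-like cells. *Phgdh* was also higher in basal than in secretory cells, in 16 of 19 mice, so the serine pathway's enzymes were ordered differently across the epithelial types.

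The regulators were spread more widely. *Atf4*, the transcription factor at the centre of the response, was highest in endothelial cells (537.6, range 284 to 1044) and next in basal cells (462.2). *Ddit3*, the stress factor CHOP, led in prostate-like cells at 141.6 (25.84 to 480.5), followed by smooth muscle at 101.4. *Atf5*, a relative of ATF4 that is also controlled in translation, was highest in fibroblasts (57.78, range 37.12 to 176.1, 23 mice), above secretory cells in 21 of 21 mice. *Atf5* was thus the member with the clearest stromal place, while *Asns*, *Chac1* and *Phgdh* were lower in fibroblasts than in secretory cells in every one of the 21 mice.

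*Trib3*, a pseudokinase that restrains ATF4 and CHOP, *Sesn2*, a leucine sensor upstream of mTORC1, and *Slc7a11*, the light chain of the cystine-glutamate exchanger, were sparse. Their highest medians were 14.49 in prostate-like cells for *Trib3*, 19.27 in basal cells for *Sesn2* and 12.75 in macrophages for *Slc7a11*. *Slc7a11* had a higher CPM in macrophages than in secretory cells in 15 of 21 mice and fewer in 3. In secretory cells these 3 genes stayed under the count filter, so tests there covered 7 of the 10 members.

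**Figure D1:**
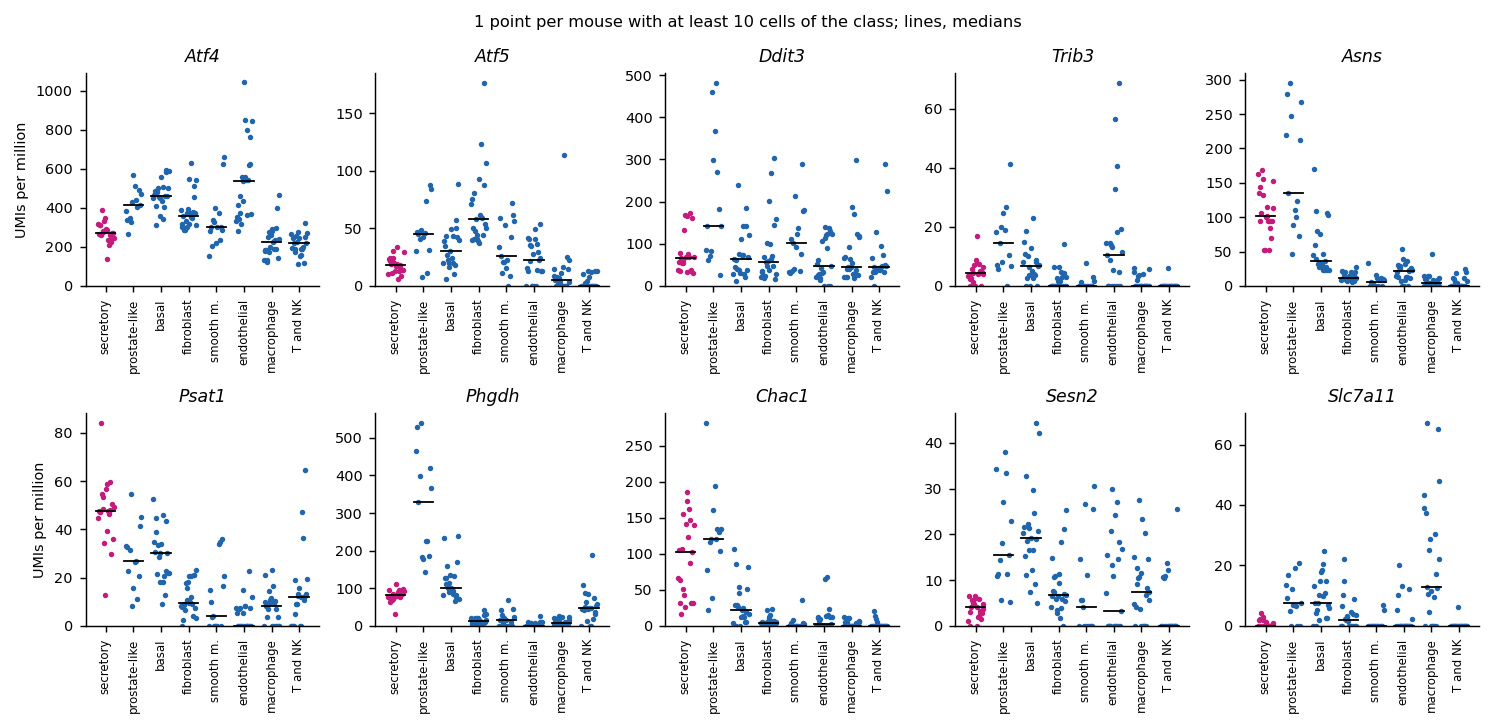
CPM outside the *Svs* genes (vertical axis) for each of the 10 genes by cell type (horizontal axis), with a point for each mouse with at least 10 cells of the type and a bar at the median. *Asns* and *Chac1* sit highest in prostate-like and secretory cells, *Atf5* in fibroblasts and *Slc7a11* in macrophages.

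Caloric restriction was accompanied by lower levels of the synthesis genes and of *Chac1* in secretory cells. *Asns*, *Chac1* and *Phgdh* fell past the test, and no member rose past it, except *Ddit3* where mice were scaled by library size alone. Levels within secretory cells are given as CPM after TMM scaling. TMM (trimmed mean of M values) sets each mouse against the bulk of its genes. Tests used edgeR's quasi-likelihood method on UMIs summed per mouse, adjusted over all 7014 genes tested.

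*Asns* was at 101.3, 93.01 and 159.0 CPM in control mouse 1, control mouse 2 and the control single-mouse library. In the 2 calorically restricted mice it was at 38.48 and 31.82 CPM, from 65 and 8 UMIs. Both restricted mice lay below every control mouse, with means of 118 ± 35.9 (SD, n = 3) and 35.2 ± 4.71 (n = 2). The log2 fold change was -1.39 ± 0.26 (SE, adjusted p = 0.00876).

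*Chac1* was at 144.2, 170.5 and 238.6 CPM in the control mice, in the same order. In the restricted mice it was at 31.97 and 15.91 CPM, from 54 and 4 UMIs. The groups did not overlap, and of the 7 genes tested *Chac1* had the largest difference, a log2 fold change of -2.56 ± 0.50 (adjusted p = 0.0124).

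*Phgdh* was at 114.1, 72.34 and 114.4 CPM in the control mice and at 56.24 and 19.88 CPM in the restricted mice. The lowest control mouse was again above both restricted mice, and the log2 fold change was -1.08 ± 0.26 (adjusted p = 0.0407). *Psat1* was at 57.5, 36.17 and 81.09 CPM in the control mice and at 25.46 and 7.954 CPM in the restricted mice. These groups did not overlap either, but at -1.28 ± 0.32 *Psat1* missed the threshold (adjusted p = 0.0526). In restricted mouse 2, 1 UMI stood for 3.977 CPM, so its *Phgdh* and *Psat1* values rest on few UMIs.

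None of the regulators passed the test. *Atf4* was at 294.1, 129.2 and 397.2 CPM in the control mice and at 245.1 and 214.8 CPM in the restricted mice, well inside the control range (log2 fold change 0.01 ± 0.22, adjusted p = 0.999). *Ddit3* was at 69.76, 31.0 and 227.9 CPM in the control mice and at 98.27 and 103.4 CPM in the restricted mice. The single-mouse library alone held the high *Ddit3* value, and with library type in the fit the log2 fold change was 0.81 ± 0.26 (adjusted p = 0.142). *Atf5* was at 17.44, 31.0 and 26.43 CPM in the control mice and at 14.8 and 7.954 CPM in the restricted mice (log2 fold change -0.32 ± 0.40, adjusted p = 0.800), so that its groups did not overlap but the fitted difference was smaller than its error.

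In all, 3 of the 7 members tested were lower at adjusted p under 0.05 and 0 were higher, where 1.2% of all genes tested were lower and 0.499% higher (1.7% in all). At an unadjusted p under 0.05 there were 5 of 7, with 4 lower and 1 (*Ddit3*) higher, against 14.0% of genes. The median log2 fold change of the 7 was -1.08, against 0.00 for all genes. The share of all genes whose groups did not overlap was not counted. *Trib3*, below the filter, had 8.955, 15.5 and 10.63 CPM in the control mice and 5.328 and 0 CPM in the restricted mice, the latter being 0 of 154895 UMIs, which allows up to 11.9 CPM by counting error alone. *Sesn2* was at 6.127, 0 and 5.537 CPM against 3.552 and 3.977 CPM, and *Slc7a11* was at 1.414, 0 and 0.3572 CPM against 0 in both. At these counts a difference in *Trib3*, *Sesn2* or *Slc7a11* was not detectable.

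**Figure D2:**
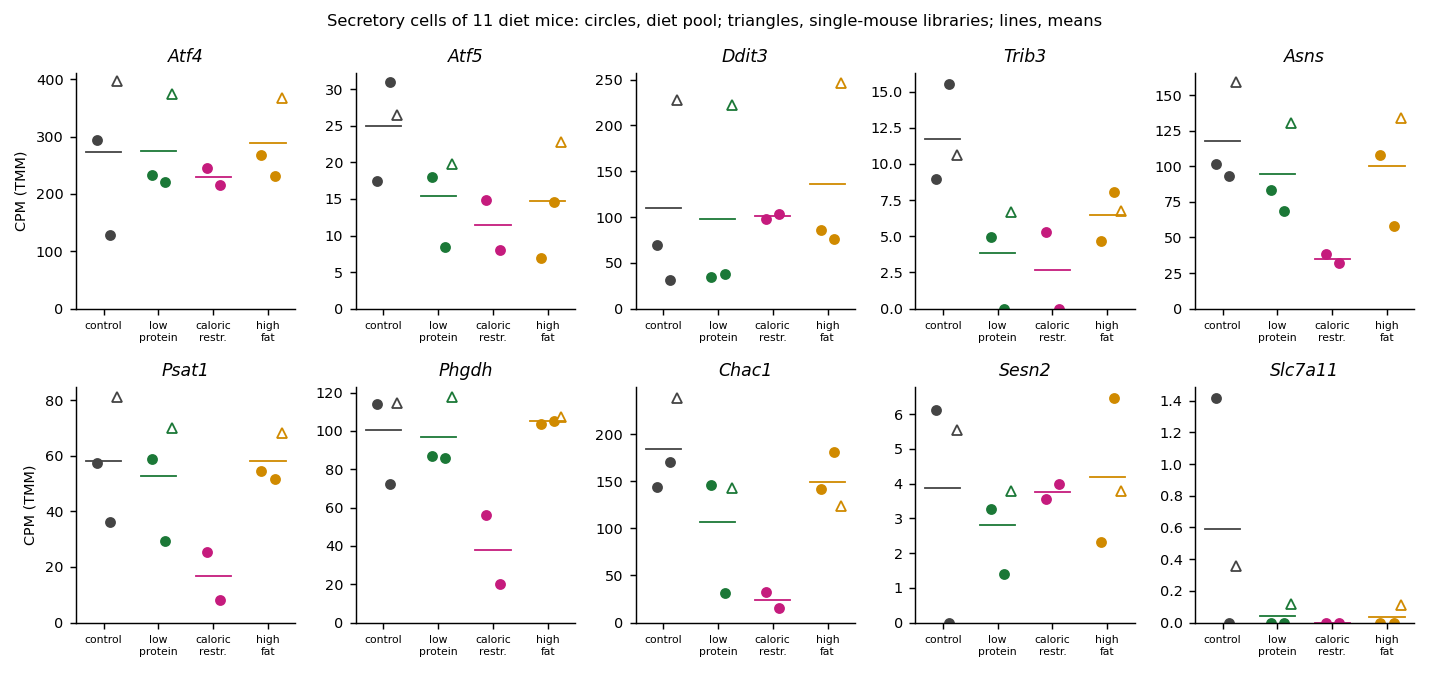
CPM after TMM scaling in secretory cells (vertical axis, 1 panel for each of the 10 genes) for the 11 diet mice by regimen (horizontal axis), with circles for the diet pool, triangles for single-mouse libraries and lines at group means. In *Asns*, *Chac1*, *Phgdh* and *Psat1* both restricted mice lie below all 3 control mice, and how many of all genes do so was not counted.

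The calls rested on few mice. Within the diet pool alone the log2 fold changes were -1.38 for *Asns*, -2.43 for *Chac1* and -1.09 for *Phgdh*, and no member passed the test (adjusted p = 0.0874, 0.0857 and 0.191). Without caloric restriction mouse 1 the 3 values were -1.55, -3.33 and -2.26, of which *Phgdh* alone passed (adjusted p = 0.116, 0.0892 and 0.0139). Without restricted mouse 2, which had 17 secretory cells, *Asns* (-1.35) and *Chac1* (-2.40) passed and *Phgdh* (-0.84, adjusted p = 0.139) did not. Without the control single-mouse library *Asns* alone passed (-1.40, adjusted p = 0.0338, with *Chac1* at 0.0501 and *Phgdh* at 0.108), and without control mouse 1 *Phgdh* (-0.90, adjusted p = 0.237) did not. Fitted on the control and restricted mice alone, *Chac1* passed (adjusted p = 0.00344), and *Asns* (0.0868) and *Phgdh* (0.386) did not. The TMM factors of the restricted mice were 1.353 and 1.623. Scaled by library size alone, the median gene moved to 0.50, calls moved from 35 higher and 84 lower to 711 higher and 41 lower, and *Asns* stood at -0.90 (adjusted p = 0.0383), *Chac1* at -2.07 (adjusted p = 0.0152) and *Phgdh* at -0.59 (adjusted p = 0.120). *Ddit3* was then called higher, at 1.32 (adjusted p = 0.00657).

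Of the 27 genes of the wider response list 21 were tested, 5 fell and 0 rose, where 1.2% of all genes fell and 0.499% rose. Of the 21, 13 stood below and 8 above 0, with a median log2 fold change of -0.34 where that of all genes was 0.00. The 5 were the leucine transporter light chain *Slc7a5* (-1.39 ± 0.24, adjusted p = 0.00418), the translation repressor *Eif4ebp1* (-1.08 ± 0.21, adjusted p = 0.0110), the mitochondrial folate enzyme *Mthfd2* (-1.32 ± 0.29, adjusted p = 0.0281), the serine pathway phosphatase *Psph* (-1.19 ± 0.28, adjusted p = 0.0378) and the mitochondrial serine hydroxymethyltransferase *Shmt2* (-1.26 ± 0.30, adjusted p = 0.0392).

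*Slc7a5* was at 122.5, 118.8 and 129.4 CPM in the control mice and at 50.91 and 31.82 CPM in the restricted mice. *Psph*, which completes serine synthesis after *Phgdh* and *Psat1*, was at 106.5, 108.5 and 130.4 CPM against 54.46 and 23.86 CPM. *Mthfd2* was at 102.3, 56.84 and 105.5 CPM against 43.81 and 11.93 CPM. For these 3 genes every restricted mouse was below every control mouse, but how many of all genes separate so was not counted. In restricted mouse 2, 3 UMIs make 11.93 CPM, the level of *Mthfd2* there, so its values rest on few UMIs. *Slc7a5* passed the test with any 1 of the 5 control and restricted mice left out. *Psph* and *Mthfd2* did not pass without restricted mouse 2 (adjusted p = 0.125 and 0.0665), control mouse 1 (0.108 and 0.169) or the control single-mouse library (0.113 and 0.0946), and *Psph* also not without control mouse 2 (0.0534). *Eif4ebp1* did not pass without restricted mouse 1 (adjusted p = 0.0904) or control mouse 1 (0.0804), and *Shmt2* passed only without control mouse 2 (0.0303). Fitted on the control and restricted mice alone, none of the 5 genes passed, with *Slc7a5* nearest (adjusted p = 0.0869).

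The tRNA synthetase list had 12 of 13 genes below 0 (median -0.47), but 0 of 13 were called by edgeR. An unadjusted p under 0.05 was found for 3 of 13 (2 lower, and *Aars* higher at 0.76), against 14.0% of all genes. The lowest p was that of *Sars*, seryl-tRNA synthetase (-0.58 ± 0.19, adjusted p = 0.147). The amino acid sensors (6 of 13 tested) and the endoplasmic reticulum chaperones (13 tested) had 0 calls, with lowest p in *Sesn3* (0.50 ± 0.34, adjusted p = 0.559) and *Sdf2l1* (-0.78 ± 0.27, adjusted p = 0.165).

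Other RNA moved along with this contrast. All 16 genes of the dissociation stress list (immediate-early and heat shock genes) stood above 0, with a median of 0.74, and 2 were called higher, where 0.499% of all genes were. They were *Nr4a1* at 2.19 ± 0.44 (adjusted p = 0.0153) and *Egr1* at 1.42 ± 0.30 (adjusted p = 0.0222). Both calls were lost without restricted mouse 2 (*Nr4a1* 1.35, adjusted p = 0.0600, and *Egr1* 0.98, 0.165), without the control single-mouse library (0.0781 and 0.101), within the diet pool alone (0.161 and 0.176) and on the control and restricted mice alone (0.0630 and 0.176). *Nr4a1* was also lost without control mouse 1 (0.0766) and *Egr1* without control mouse 2 (0.0553). The summed level of that list in secretory cells was 5428, 4382 and 6439 CPM in the control mice and 6774 and 9112 CPM in the restricted mice. In these secretory cells the 5 genes of the prostate-like marker list summed to 48004, 55532 and 49364 CPM in the control mice. In the restricted mice they summed to 7100 and 2632 CPM, a difference carried by *Spink1*, which encodes a trypsin inhibitor (-3.57, adjusted p = 1.489e-07). In other cells, which include those typed as prostate-like, the list summed to 5081, 3919 and 713 CPM in the control mice. There the restricted mice were at 4009 and 483 CPM. The list's sum in secretory cells is therefore no measure of prostate-like cells. The part of either list in the lower *Asns*, *Chac1* and *Phgdh* was not tested.

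**Figure D3:**
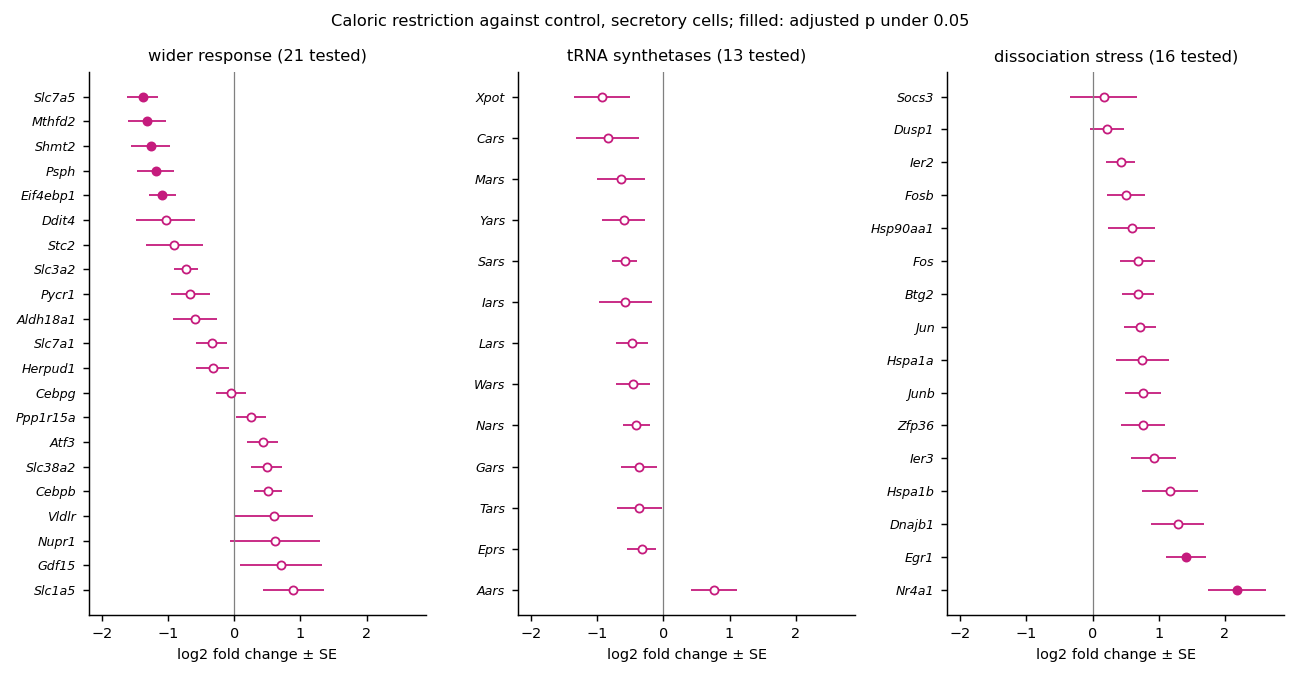
Log2 fold change of caloric restriction against control in secretory cells (horizontal axis, bars are SE) for each tested gene of the wider response, tRNA synthetase and dissociation stress lists, filled where the adjusted p was under 0.05. The 5 filled genes of the wider response list lie below 0 and the 2 filled stress genes above it.

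In the other cells 0 of the 10 members were called under caloric restriction, where 2.32% of 11174 genes were, and 2 members had an unadjusted p under 0.05, as 15.5% of genes did. *Asns* was at 34.39, 35.61 and 18.47 CPM in the control mice and at 18.47 and 10.61 CPM in the restricted mice (log2 fold change -1.06 ± 0.29, adjusted p = 0.0847). *Chac1* was at 48.2, 10.68 and 14.78 CPM against 15.43 and 16.98 CPM (-1.06 ± 0.39, adjusted p = 0.211). The restricted mice reached the lowest control mouse for *Asns* and lay inside the control range for *Chac1*. The remaining 8 members lay between -0.62 (*Slc7a11*) and 0.56 (*Ddit3*). Of the wider response list *Slc7a1*, a transporter of cationic amino acids, fell (-0.82 ± 0.14, adjusted p = 0.0148), but not without control mouse 1 (adjusted p = 0.0848) or restricted mouse 2 (0.0980). It also did not pass on the control and restricted mice alone (-0.87, adjusted p = 0.234), within cells with basal markers (-0.48, 0.281) or within cells with fibroblast markers (-0.34, 0.687). *Nr4a1* (0.98, adjusted p = 0.00784) and *Egr1* (0.74, adjusted p = 0.0394) rose here too. Neither passed on the control and restricted mice alone (adjusted p = 0.216 and 0.359). *Nr4a1* passed with any 1 of the 5 mice left out, and *Egr1* passed only without restricted mouse 2 (0.0176) and otherwise ranged from 0.0717 to 0.190.

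The makeup of the other cells moved with the regimen as well. Cells with basal markers were 114 of 1022 and 62 of 670 in the restricted mice. In control mouse 1, control mouse 2 and the control single-mouse library they were 323 of 933, 25 of 158 and 465 of 1412. Cells with fibroblast markers were 541 of 1022 and 255 of 670 in the restricted mice, against 215 of 933, 40 of 158 and 556 of 1412. The fibroblast share of the control single-mouse library thus lay between those of the restricted mice. In a sum over such a mixture, fewer cells of a type and less RNA per cell cannot be told apart. Within cells with basal markers alone the values were -0.25 for *Asns* (adjusted p = 0.824), 0.07 for *Chac1* and -0.33 for *Phgdh*. *Ddit3* (1.34, adjusted p = 0.264) and *Psat1* (0.85, adjusted p = 0.266) stood higher there, at an unadjusted p under 0.05.

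The difference between secretory and other cells was tested itself, with the mouse as a block. *Psat1* had a fold change lower in secretory than in other cells by a log2 value of -1.46 ± 0.39 (adjusted p = 0.0409), making 1 of the 10 members called where 1.37% of 11131 genes were. At an unadjusted p under 0.05 there were 3 of 10, against 11.4% of genes. That call was lost without control mouse 1 (adjusted p = 0.0644), restricted mouse 1 (0.226), restricted mouse 2 (0.156) or the control single-mouse library (0.179). Without restricted mouse 1, *Ddit3* was called instead, in the opposite direction (1.81, adjusted p = 0.0168, against 0.20 with all mice), and without control mouse 1, *Chac1* was called lower (-2.58, adjusted p = 2.614e-05). For *Chac1* (-1.40, adjusted p = 0.163), *Phgdh* (-0.76, adjusted p = 0.277) and *Asns* (-0.55, adjusted p = 0.608), the fold changes of the cell classes were not shown to differ. Of the lists, *Eif4ebp1* (-1.34, adjusted p = 0.00622) and *Slc7a5* (-1.31, adjusted p = 0.00877) differed in the same direction as *Psat1*, and the stress gene *Ier3* differed in the opposite one (1.24, adjusted p = 0.0154). These calls also rested on single mice, since *Eif4ebp1* was lost without restricted mouse 1 or 2 (adjusted p = 0.0563 and 0.0770), *Slc7a5* without restricted mouse 1 (0.378) and *Ier3* without restricted mouse 2 (0.513).

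**Figure D4:**
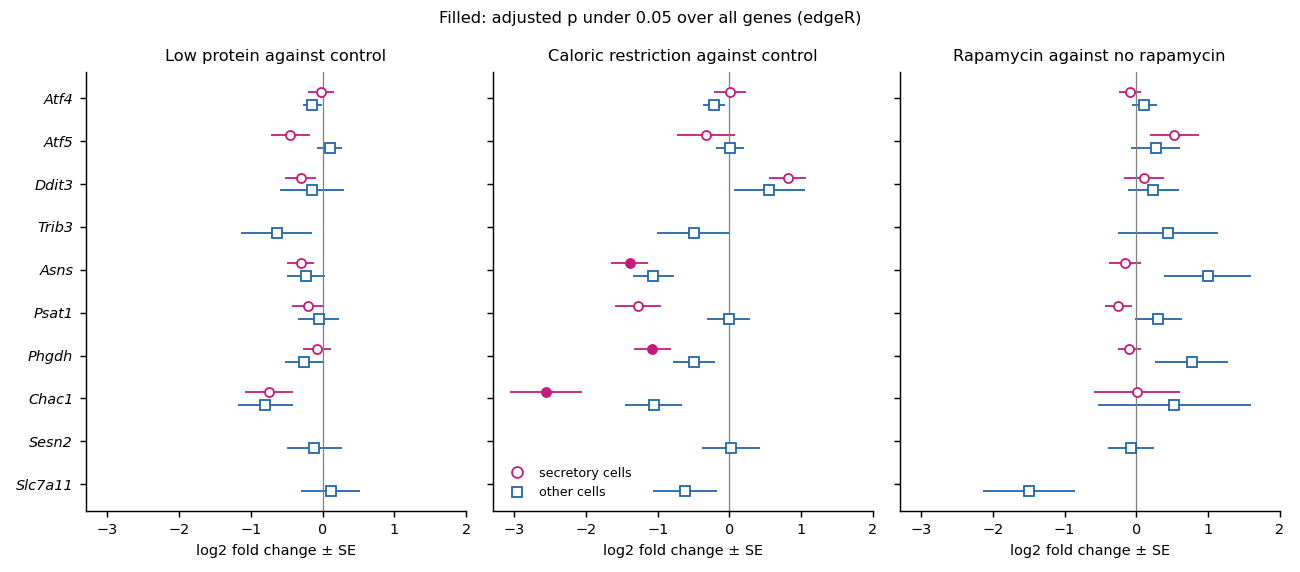
Log2 fold change (horizontal axis, bars are SE) of each gene (vertical axis) under low protein, caloric restriction and rapamycin, with circles for secretory and squares for other cells, filled where the adjusted p was under 0.05. Only *Asns*, *Chac1* and *Phgdh* in secretory cells under caloric restriction are filled, and genes without a point were below the count filter.

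Low protein, the regimen that lowers amino acid supply most directly, gave no call in the members. In secretory cells 0 of 7 were called by edgeR, where 0.0% of 7014 genes were, and *Chac1* was the 1 member with an unadjusted p under 0.05, as were 2.12% of all genes. All 7 lay below 0, with a median log2 fold change of -0.31.

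*Asns* was at 83.57, 68.91 and 130.4 CPM in low protein mouse 1, low protein mouse 2 and the low protein single-mouse library. The control mice, at 93.01 to 159.0 CPM, overlapped with them, and the log2 fold change was -0.31. *Chac1* was at 145.8, 30.94 and 143.0 CPM, so that low protein mouse 2 alone was far below the control mice and mouse 1 lay inside their range (-0.75 ± 0.34, adjusted p = 1.00). *Atf5* (-0.45), *Ddit3* (-0.31), *Psat1* (-0.21), *Phgdh* (-0.08) and *Atf4* (-0.02) gave smaller differences than *Chac1*.

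The lists under low protein gave 0 calls in either cell class. Of the wider response list 20 of 21 tested genes stood below 0 in secretory cells (median -0.23), led by *Slc3a2*, the heavy chain that pairs with *Slc7a5* and *Slc7a11* (-0.37 ± 0.14, adjusted p = 1.00). Of the tRNA synthetases 11 of 13 stood below 0, led by *Aars* (-0.55 ± 0.26). In other cells 0 of 10 members were called, where 0.0268% of 11174 genes were, and 0 had an unadjusted p under 0.05, as 3.42% of genes did. There the lowest p of the wider response list was that of *Gdf15*, a secreted stress hormone (0.63 ± 0.18, adjusted p = 1.00). The difference between the classes was called for 0 of 10 members, where 0.0629% of genes were, and 0 had an unadjusted p under 0.05, as 3.88% of genes did. The comparisons of low protein and of caloric restriction share the 3 control mice.

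Rapamycin was compared within the aging pool at 20 and 28 months, with age in the fit. In secretory cells 0 of 7 members were called by edgeR, where 0.0% of 7429 genes were, and 0 had an unadjusted p under 0.05, as 6.11% of genes did. *Asns* was at 162.1, 142.5, 94.64 and 155.1 CPM in the untreated mice (20-month 1 and 2, then 28-month 1 and 2) and at 140.6, 82.5, 136.6 and 133.8 CPM in the treated mice, in the same order. *Chac1* was at 66.75, 110.9, 14.75 and 98.11 CPM against 30.56, 56.07, 45.28 and 157.5 CPM. Over both ages both genes overlapped between treated and untreated mice, with log2 fold changes of -0.16 ± 0.22 and 0.01 ± 0.61. At 20 months alone the treated mice lay below the untreated mice for both genes. How many of all genes separate so was not counted. The highest of the 7 was *Atf5* (0.53 ± 0.34, adjusted p = 0.876), and the median was -0.09.

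In the other cells of the aging pool 0 of 10 members were called, where 0.0% of 11851 genes were, and 8 of 10 stood above 0. *Slc7a11* was the 1 member with an unadjusted p under 0.05, as were 4.13% of genes. It was at 9.966, 13.38, 39.17 and 7.064 CPM in the untreated mice and at 2.209, 12.01, 3.436 and 4.968 CPM in the treated mice. The 28-month mouse 1 held 96 of its UMIs and stood alone, the other values overlapped, and the log2 fold change was -1.49 ± 0.64 (adjusted p = 0.881). *Phgdh* was at 57.5, 193.2, 50.19 and 40.31 CPM against 57.43, 186, 128.8 and 142.7 CPM (0.77 ± 0.51, adjusted p = 0.881). *Asns* was at 41.4, 121, 22.44 and 11.64 CPM against 39.76, 96.12, 98.35 and 71.81 CPM (0.99 ± 0.61, adjusted p = 0.881). For both genes 20-month mouse 2 was the highest and 28-month mouse 2 the lowest. At 28 months alone both treated mice lay above both untreated mice for *Phgdh* and *Asns*. How many of all genes separate so was not counted, and a difference between the ages was not tested.

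The summed prostate-like markers in those other cells were 4870, 15395, 2908 and 861 CPM in the untreated mice and 3785, 14207, 11819 and 8069 CPM in the treated mice, in the same order. Their part in the *Asns* and *Phgdh* levels was not tested. The difference between the classes was called for 0 of 10 members (0.0% of 11205 genes), with an unadjusted p under 0.05 for *Phgdh* (-0.93) and *Asns* (-1.24), as for 4.94% of genes. Of the lists 0 genes were called, and the lowest p of the wider response list was that of *Nupr1*, a stress-induced nuclear protein, in secretory cells (-1.996 ± 0.62, adjusted p = 0.655) and that of *Vldlr*, a lipoprotein receptor, in other cells (1.32 ± 0.31, adjusted p = 0.881).

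**Figure D5:**
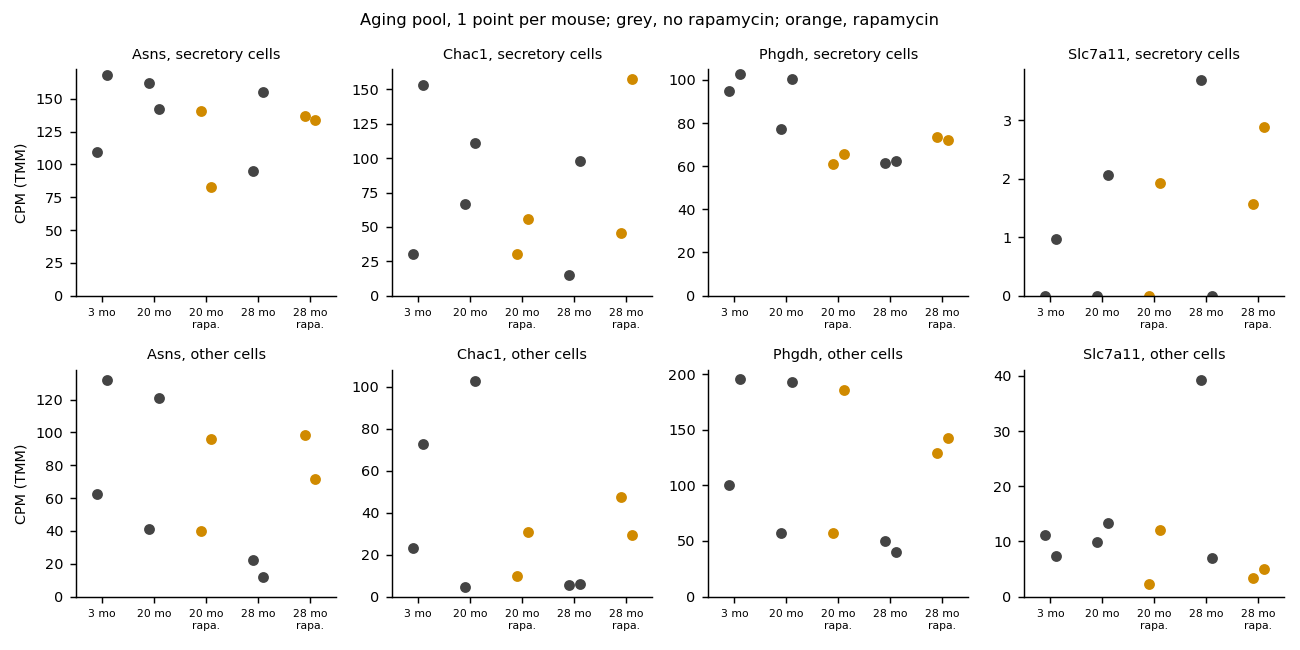
CPM after TMM scaling (vertical axis) of *Asns*, *Chac1*, *Phgdh* and *Slc7a11* in secretory and in other cells for the 10 mice of the aging pool by age and treatment (horizontal axis). Treated and untreated mice overlap, and 28-month mouse 1 stands alone for *Slc7a11* in other cells.

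Among the members, the synthesis genes varied together over secretory cells of 21 mice once each set of mice was centred. Pearson's r was 0.805 for *Psat1* and *Phgdh*, 0.712 for *Asns* and *Chac1*, 0.700 for *Asns* and *Phgdh* and 0.673 for *Asns* and *Psat1*. *Atf4* and *Atf5* gave -0.484. The 5 genes most like the members' mean, of 1610 genes at 50 CPM or more, were *Lman1*, a cargo receptor of the secretory pathway (r = 0.845), *Grpel1*, a mitochondrial import cochaperone (0.799), *Ndufb9*, a subunit of respiratory complex I (0.791), *Srm*, spermidine synthase (0.790), and *Chmp3*, an ESCRT subunit (0.785). These are descriptions without a test, since the mice share pools, depth and the restricted pair described above.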

How the data were processed

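The authors deposited UMI counts per gene and cell for each mouse, made per the labels with Cell Ranger (3.1.0 and 6.0.1 are named) on mm10 and handled with Seurat. Conditions inside a pool came from the names of the demultiplexed tables and the study's sample list. Members and lists were chosen with earlier results of these data known.

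The 12 tag rows were left out. Cells with at least 500 genes, 200 UMIs and at most 10% mitochondrial UMIs were kept, since the stated limit of 1% would leave 2615 cells. Doublets were not called. The 7 *Svs* genes were left out of depth and tests, which left 154895 to 15444107 UMIs in secretory cells of each diet mouse; 133 cells lay between 25 and 35% on *Svs* genes. The UMIs of *Ddit3* are those of the gene model that holds counts, as an overlapping model held 0. Other cells took a type at 3 or more of its markers and more than of any other type (23369 cells).

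UMIs were summed per mouse and class and tested with edgeR 4.0.16 (filterByExpr, TMM, quasi-likelihood, Benjamini-Hochberg over all genes, threshold 0.05). The 11 diet mice shared a fit with a term for library type (pooled or single mouse), and the 10 aging mice a fit with age. SE is the absolute log2 fold change over the square root of F. P-values measure the spread between mice. In simulated data with a log2 change of 2, the fits recovered 77.7 to 98.4% of changed genes. False calls were 0 to 8.18% of calls. Recovery was lowest and false calls were highest for caloric restriction in secretory cells. Genes named from the lists were those past the threshold, or else the gene of lowest p in a list. Alternatives were DESeq2 1.42.0, no TMM, no filter, *Svs* genes kept, all cells, other *Svs* limits, fewer groups, the diet pool only, marked cell types, a replicate block and leaving out each mouse. R 4.3.3 and Python 3.11.15 were used. Promoters are RefSeq's, GRCm38.p6.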

Additional observations from a re-analysis of the deposited data

Results flagged for a closer look

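In 40 groups of 4 mice, a mouse was marked where its gap to the nearest other exceeded 0.829 of the group's range, which chance alone gives in about 1 of 20 groups. Among rapamycin-treated mice, *Atf5* in secretory cells was at 30.93 CPM in 28-month mouse 2 against 21.08 to 21.39 in the others, and *Asns* was at 82.5 CPM in 20-month mouse 2 against 133.8 to 140.6. Among untreated aged mice, 20-month mouse 2 had *Chac1* at 103.0 CPM in other cells against 4.6 to 5.818, and *Phgdh* at 193.2 CPM against 40.31 to 57.5. That mouse also held 61 cells with prostate-like markers among its 542 other cells, where 28-month mouse 2 held 9 of 772, and the part of those cells was not tested.

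Under caloric restriction the fold change differed between secretory and other cells for *Eif4ebp1* (-1.34), *Slc7a5* (-1.31), *Psat1* (-1.46) and *Ier3* (1.24) on the log2 scale, each past the interaction test.

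The young and the old individual, which entered no test, lay above all 3 control mice in other cells for several members. *Atf4* was at 570.9 and 529.2 CPM (controls 347.2 to 509.9), *Ddit3* at 253.2 and 242.7 (49.85 to 151.5) and *Sesn2* at 27.57 and 26.65 (3.561 to 15.21). In the old individual *Psat1* was at 25.57 CPM (16.02 to 22.17) and *Slc7a11* at 18.5 (7.122 to 7.917). The remaining members are not listed. Cells with smooth muscle markers were 2537 of 9164 and 2560 of 9113 other cells in the individuals. In the control mice they were 71 of 933, 16 of 158 and 21 of 1412. The part of cell makeup and of library type in these levels was not tested.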

How the results depend on the processing

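No single-gene result changed direction while called. Counts were compared by their totals, without regard to direction. Under caloric restriction in secretory cells, calls moved from 35 higher and 84 lower to 711 higher and 41 lower without TMM. Of single-gene results under an alternative, 1835 kept direction and side of the threshold, 82 lost a call, 33 gained one and 108 changed sign without a call. For counts the cause of a change was not tested.

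Secretory cells, caloric restriction (119 genes and 3 members called): DESeq2 gave 211 genes with 4 members, no TMM 752 with 2 members lower and 1 higher (*Ddit3*), no filter 311 with 4, the 50% *Svs* limit 177 with 4, only the groups compared 30 with 1 member, the diet pool only 37 with 0 members, and leaving out 1 mouse 44 to 130 genes with 1 to 4 members. Other cells (259 genes, 0 members): no filter gave 951 with 2 members, all deposited cells 475 with 2, only the groups compared 0, the diet pool only 125, cells with fibroblast markers 106, with macrophage markers 0, and leaving out 1 mouse 67 to 287 with 0 to 1 member. Difference between classes (152 genes, 1 member): DESeq2 gave 55, no TMM 697 with 0 members, no filter 2 members, all cells 263, the 50% *Svs* limit 237 with 2 members, only the groups compared and the diet pool only 0 members, and leaving out 1 mouse 67 to 195 genes with 0 to 1 member, which was *Ddit3*, higher, without restricted mouse 1 and *Chac1*, lower, without control mouse 1. Without control mouse 2, 1 member was also called, lower. DESeq2 gave no adjusted p for *Psat1* in this difference between classes.

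Low protein, secretory cells (0 genes): no filter gave 29, the 50% limit 2, only the groups compared 1, leaving out 1 mouse 0 to 3. Other cells (3): DESeq2 gave 1, no filter 101, only the groups compared, the diet pool only, basal and macrophage cells 0, leaving out 1 mouse 0 to 4. Difference (7): DESeq2 gave 0, no filter 18, all cells 17, the 50% limit 23, only the groups compared 2, the diet pool only 46, leaving out 1 mouse 5 to 59. Rapamycin, secretory cells (0): no filter gave 183, leaving out 1 mouse 0 to 7. Other cells (0): DESeq2 gave 2, no filter 41. Difference (0): no filter gave 106 with 1 member (*Asns*), *Svs* genes kept 1, the 50% limit 2, leaving out 1 mouse 0 to 5.

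Replicate numbers did not pair the mice, with correlations of same-numbered mice of -0.191 to 0.0794 (aging pool) and -0.147 to 0.0749 (diet mice) in secretory cells, and of -0.142 to 0.373 and -0.256 to 0.231 in other cells. With a replicate block caloric restriction gave 123 genes in secretory cells, with *Psat1* as a 4th member (adjusted p = 0.0240), and 285 in other cells, low protein gave 0 and 3, and rapamycin 0 and 0. Depth limited secretory values too, since 1 mouse of each of the control and restricted groups had under 20 secretory cells.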

Other observations

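High fat mice entered the fits only through their spread. In their secretory cells (high fat mouse 1, mouse 2, single-mouse library) *Asns* was at 108.2, 58.1 and 133.9 CPM and *Chac1* at 141.9, 180.7 and 123.6 CPM. *Phgdh* was at 103.5, 104.9 and 107.2 CPM and *Psat1* at 54.66, 51.64 and 68.32 CPM. All of these lay above both calorically restricted mice, but these genes are shown because they were low in those mice. How many of all genes separate so was not counted. *Ddit3* was at 246.3 CPM in the single-mouse library, against 86.07 and 75.85 in the pool. This repeated the gap between library types seen in the control (227.9 against 69.76 and 31.0) and low protein (222.4 against 34.41 and 37.97) mice.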
